A study of Homo sapiens with 13 samples.

Results

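H3K4me3 regions found in ZNF263 knockout cells and not in wild-type cells are described here. They are the peaks of the knockout (KO) H3K4me3 list that do not overlap, by even 1 bp, any peak of the wild-type (WT) H3K4me3 list, and they are called KO-only regions below. There were 1980 of them among 27126 KO H3K4me3 peaks, which is 7.3% of that list, out of 136141 peaks in the 7 lists of the series. The other 25146 KO peaks overlapped a WT peak and are called shared, and 3535 of 28660 WT peaks (12.3%) overlapped no KO peak and are called WT-only. The WT list was longer, and with both lists held to their 27126 highest scores there were 2459 KO-only and 2519 WT-only regions. The KO-only regions were chosen from the H3K4me3 lists themselves, so their H3K4me3 values and their distance to the WT list are given as a description, with no test.

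The cells were H1 (WA01), an established line of human embryonic stem cells. KO cells were homozygous for a Cas9 deletion of ZNF263, a zinc finger transcription factor of the C2H2 type, and carried the single line name 1-10. WT cells were H1 cells labelled as wild type, and the deletion was not checked here, since these lists cover histone marks. A further library came from cells of the same KO line that also expressed ZNF263 with a FLAG tag. The name of its peak list holds OE, which may stand for overexpression. Neither the promoter that drives the tagged copy nor a measured level is stated in the sources used here. The same name holds noblk, which the histone list names lack and which may mark a filter applied to this list alone. Chromatin immunoprecipitation with sequencing (ChIP-seq) gave 1 list for each of 3 histone marks in KO and in WT cells, and 1 list with the FLAG antibody. Each list rests on 1 library per genotype, so differences between KO and WT have no replicate check, and no test between genotypes was made. Peak lists carry no reads, so library depth is unknown here. The 95% intervals below account for counting error over peaks and for nothing else.

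As background, H3K4me3 is laid down by the SET1 and MLL methyltransferase complexes and is strongest at promoters rich in CpG, both active ones and those that Polycomb holds silent. H3K27ac is the work of the acetyltransferases p300 and CBP and marks active promoters and enhancers, and active enhancers often carry a low level of H3K4me3. H3K27me3 is made by Polycomb repressive complex PRC2. In embryonic stem cells many promoters of developmental genes carry H3K4me3 and H3K27me3 together, a state called bivalent.

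KO-only regions were weak and narrow peaks. Their median score, the authors' value from peak calling, was 67.2, against 2462 for shared KO peaks, where the lowest score in the KO list was 50.02. Scores under 100 made up 84.6% of KO-only regions and 10.8% of shared KO peaks. Only 26 KO-only regions reached a score of 200, 11 reached 300 and 5 reached 500. Their median width was 1273 bp, against 2676 bp for shared KO peaks, and 105 KO-only regions (5.30%) were at least 2000 bp wide, against 72.2% of shared KO peaks. The share of KO H3K4me3 peaks that were KO-only was 49.96% below a score of 60, 39.5% from 60 to 75, 27.2% from 75 to 100, 12.7% from 100 to 150 and 0.326% from 150 upward. WT signal too weak to be called as a peak is not in these lists, so the name KO-only describes the lists and not a measured absence of the mark.

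**Figure D1:**
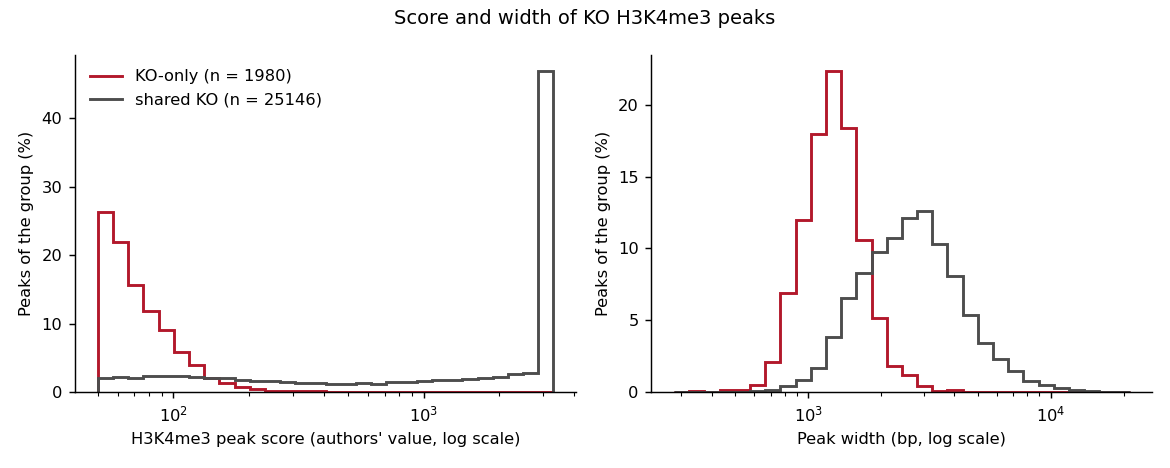
Histograms of H3K4me3 peak score (left, log axis, authors' value) and peak width (right, log axis, bp) for the 1980 KO-only regions and the 25146 shared KO peaks, each as a percent of its group. KO-only regions pile up at the low end of both scales, with medians of 67.2 and 1273 bp against 2462 and 2676 bp.

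Regions at the edge of the rule show how it divides the list, with coordinates in hg19, counted from 1. Just inside it, the KO-only region at chr18:3772484-3773588 (score 73.7) lay 23 bp from a WT H3K4me3 peak with a score of 990. The KO-only region at chr12:12866575-12868303 (score 269) lay 44 bp from a WT peak with a score of 3100. Just outside it, the KO peak at chr8:13734559-13735393 (score 68.9) overlapped a WT peak with a score of 50.4 by 5 bp. Such cases were few, since 6 KO-only regions lay within 100 bp of a WT peak and 7 shared KO peaks overlapped the WT list by 100 bp or less.

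Most KO-only regions lay more than 5 kb from any H3K4me3 peak of WT cells. The median distance, edge to edge, was 29.7 kb (quartiles 8.82 and 79.1 kb). Of the 1980 regions, 86 (4.34%) lay within 1 kb of a WT peak, 233 (11.8%) from 1 to 5 kb, 931 (47.02%) from 5 to 50 kb, and 730 (36.9%) more than 50 kb away. WT-only regions were a median of 23.8 kb from the nearest KO peak. H3K4me3 peaks are widely spaced in general. The next peak of the KO list was a median of 19.5 kb from shared KO peaks and 30.8 kb from KO-only regions. Of the 86 regions within 1 kb of a WT peak, 71 also lay within 1 kb of a shared KO peak, so that they lay beside H3K4me3 present in both genotypes. The median score was 68.3 within 1 kb and 67.1 beyond 50 kb.

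The 5 KO-only regions farthest from WT H3K4me3 lay on chromosomes 9, 13 and 3. The farthest, at chr9:31030236-31031569 (score 103) was 1312 kb from the nearest WT H3K4me3 peak and carried no other mark, with a KO H3K27ac peak 1.86 kb away and a WT H3K27ac peak 2.23 kb away. Chromosome 13 held 3 of the 5. At chr13:90166600-90167810, H3K27ac was present in KO alone and the nearest WT H3K27ac peak was 880 kb off. The regions at chr13:86372701-86373814 and chr13:66033629-66034785 overlapped neither H3K27ac nor H3K27me3 peaks in either genotype. The fifth, at chr3:162439135-162440446, carried H3K27ac in both genotypes.

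Most KO-only regions had no other KO-only region within 50 kb. The nearest other KO-only region was a median of 434 kb away, and the nearest WT-only region 270 kb. WT-only regions were more numerous (3535 against 1980), so these medians cannot be compared directly. Whether the spacing differs from random placement was not tested. When regions up to 50 kb apart were joined, 1746 remained single and 234 (11.8%) fell into 113 clusters, 7 of them with 3 or more regions. The largest held 4 regions over 53.03 kb at chr2:66874684-66927708. Of these, 1 carried H3K27ac in KO and none in WT. The next, at chr2:189304237-189328400, held 3 regions, all with H3K27ac in KO and 1 with H3K27ac in WT. The cluster at chr3:112040180-112073999 had the same counts.

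**Figure D2:**
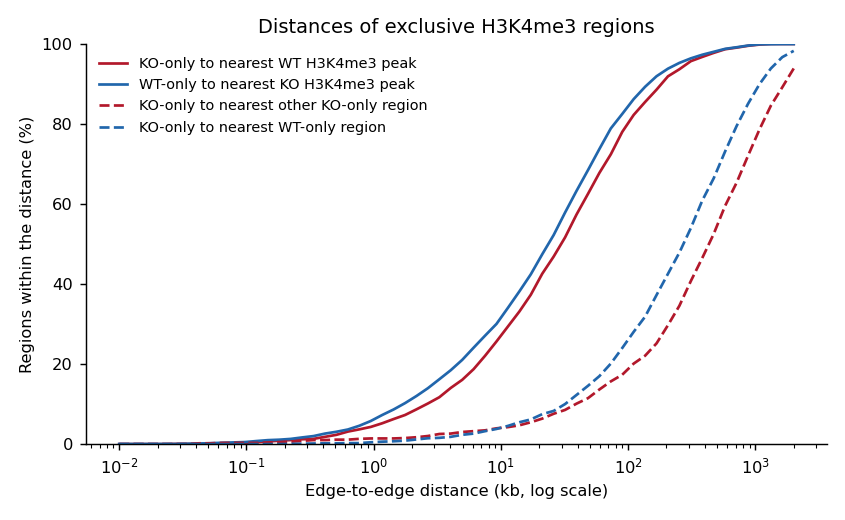
Cumulative percent of regions within a given edge-to-edge distance (kb, log axis). Solid lines give KO-only regions to the nearest WT H3K4me3 peak (median 29.7 kb) and WT-only regions to the nearest KO H3K4me3 peak (median 23.8 kb), and dashed lines give KO-only regions to the nearest other KO-only region (median 434 kb) and to the nearest WT-only region (median 270 kb).

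H3K27ac, which the rule did not use, was called on these regions more often in KO than in WT. A KO H3K27ac peak overlapped 746 of the 1980 KO-only regions (37.7%, Wilson interval 35.6 to 39.8), and a WT H3K27ac peak overlapped 543 (27.4%, 25.5 to 29.4). Over all KO H3K4me3 peaks these shares were 41.4% for KO H3K27ac and 43.5% for WT H3K27ac. H3K27ac was present in KO alone at 267 KO-only regions (13.5%, 12.05 to 15.1), against 5.09% of all KO H3K4me3 peaks. It was present in WT alone at 64 (3.23%, 2.54 to 4.11), against 7.15% of all KO H3K4me3 peaks, and in both genotypes at 479 (24.2%), against 36.3% of all. KO-only regions with H3K27ac in KO alone thus outnumbered those with it in WT alone by a factor of 4.17. Among all shared KO peaks the order was the opposite, with H3K27ac in KO alone at 1114 (4.43%) and in WT alone at 1876 (7.46%). That order came mainly from shared peaks with a score of 150 or more, with 782 in KO alone and 1605 in WT alone. Weighted to the score and width classes of the KO-only regions, shared KO peaks had the same order as those regions. The weighted shares were 8.15% in KO alone and 5.64% in WT alone.

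The excess over shared KO peaks was larger than the counting error. The share of KO-only regions with H3K27ac in KO alone exceeded that of shared KO peaks by 9.05 points (Newcombe interval 7.60 to 10.6). With the shared peaks weighted to the score and width classes of the KO-only regions, that share was 8.15% and the excess 5.33 points (3.43 to 7.23). H3K27ac in WT alone was less frequent on KO-only regions than on shared KO peaks (difference -4.23 points, -4.996 to -3.30), and the difference was -2.41 points (-3.62 to -1.20) with the shared peaks weighted. The comparison of H3K27ac in KO as such turned with the weights. KO-only regions overlapped KO H3K27ac less often than all shared KO peaks did (difference -4.03 points, -6.23 to -1.79), and more often than shared peaks weighted to the same score and width (4.66 points, 1.83 to 7.50).

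WT-only regions showed the opposite order. H3K27ac was in KO alone at 184 of the 3535 WT-only regions (5.21%) and in WT alone at 273 (7.72%). KO-only regions exceeded WT-only regions by 8.28 points for H3K27ac in KO alone (6.65 to 9.998), and WT-only regions had more H3K27ac in WT alone (KO-only minus WT-only -4.49 points, -5.65 to -3.28). The shares with WT H3K27ac were not separated beyond counting error, at 27.4% of KO-only and 26.8% of WT-only regions (difference 0.578 points, -1.85 to 3.05). KO H3K27ac overlapped 37.7% of KO-only and 24.3% of WT-only regions, a difference of 13.3 points (10.8 to 15.9).

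**Figure D3:**
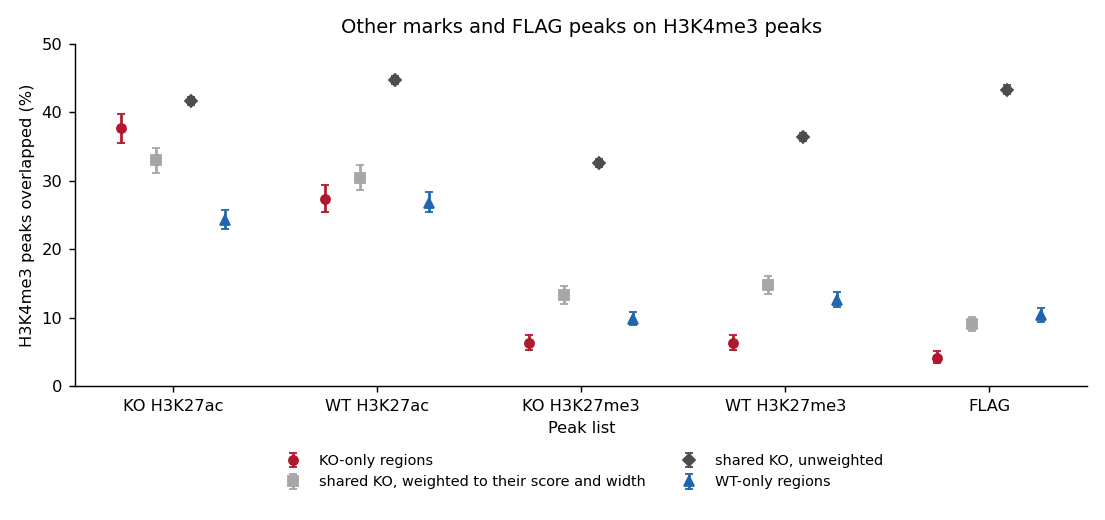
Percent of H3K4me3 peaks overlapped by a peak of each other list, for KO-only regions, shared KO peaks weighted to the score and width classes of the KO-only regions, all shared KO peaks, and WT-only regions. Bars are 95% intervals for the counting of peaks. KO-only regions lie above the weighted shared peaks for KO H3K27ac (37.7% against 33.01%) and below them in the other lists.

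The direction of the H3K27ac difference was alike over the KO-only regions. H3K27ac in KO alone outnumbered H3K27ac in WT alone on each of the 22 autosomes, and on chromosome X, where 9 regions had it in KO alone and 3 in WT alone. It did so in each class of H3K4me3 score, with 89 against 22 below a score of 60, 70 against 22 from 60 to 75, 64 against 9 from 75 to 100, 36 against 8 from 100 to 150 and 8 against 3 from 150 upward. Shared KO peaks had 45 against 48 below 60 and, in smaller excess, 61 against 57, 92 against 74 and 134 against 92 in the next classes. From 150 upward they had 782 against 1605. On KO-only regions, H3K27ac in KO alone also led in each class of distance to the WT H3K4me3 list, with 5 against 2 within 1 kb, 33 against 4 from 1 to 5 kb, 118 against 36 from 5 to 50 kb, and 111 against 22 beyond 50 kb. Restricting H3K27ac to peaks with a score of 100 or more in 1 genotype and no peak at all in the other, a setting chosen after the data were seen, left 67 KO-only regions with H3K27ac in KO alone and 4 with it in WT alone. Among shared KO peaks of all H3K4me3 scores, without weighting, that setting gave 188 in KO alone and 441 in WT alone.

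The H3K27ac peaks present in KO alone were weaker and narrower than those present in both genotypes. The 267 regions with H3K27ac in KO alone met 266 KO H3K27ac peaks, which had a median width of 1490 bp and a median score of 68.01, against 2327 bp and 161 where H3K27ac was present in both genotypes. The median region with H3K27ac in KO alone was 92.0% covered by the H3K27ac peak. The nearest WT H3K27ac peak was a median of 38.5 kb away, within 1 kb for 8 of the 267 regions and beyond 50 kb for 125. Where H3K27ac was present in both genotypes, the KO peak was the wider one at 267 of 479 regions (55.7%, 51.3 to 60.1), close to the 56.2% of shared KO H3K4me3 peaks with H3K27ac in both.

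Seen from H3K27ac, how often KO-only and shared H3K27ac peaks met KO-only H3K4me3 regions depended on whether peaks on shared H3K4me3 were counted. KO-only H3K27ac peaks made up 24.8% of the KO H3K27ac list. Of them, 262 of 4365 (6.002%, 5.34 to 6.75) overlapped a KO-only H3K4me3 region, against 479 of 13206 KO H3K27ac peaks shared with WT (3.63%, 3.32 to 3.96) and 4.22% of all KO H3K27ac peaks. The difference was 2.38 points (1.63 to 3.18). It turned when H3K27ac peaks on shared H3K4me3 were left out, where the shares were 8.24% and 12.4% (difference -4.16 points, -5.58 to -2.72). WT-only H3K27ac peaks overlapped a KO-only H3K4me3 region in 60 of 4310 cases (1.39%).

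**Figure D4:**
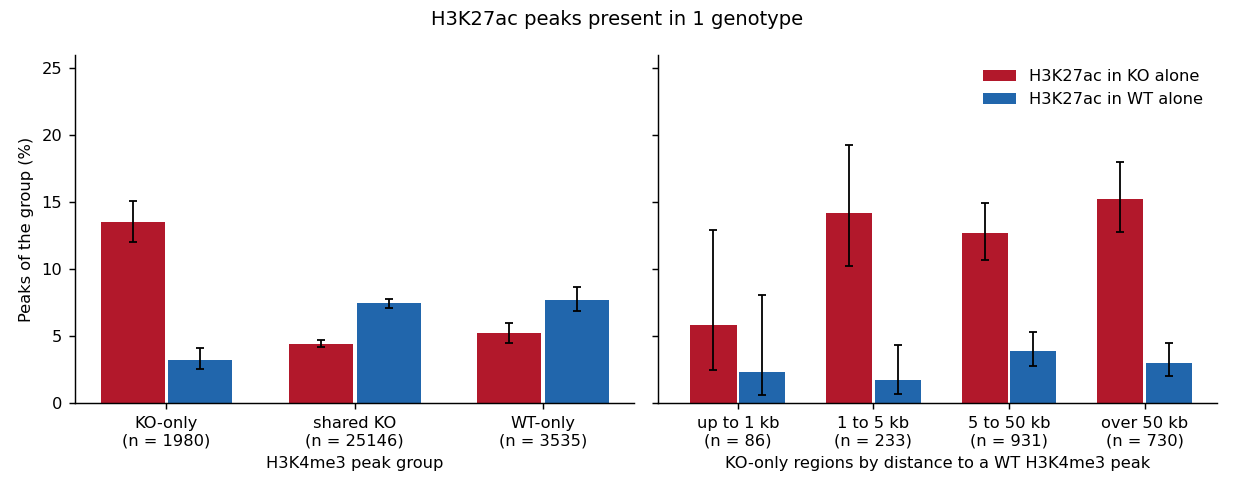
Percent of H3K4me3 peaks with an H3K27ac peak in KO alone or in WT alone, by peak group (left) and, for KO-only regions, by distance to the nearest WT H3K4me3 peak (right). Error bars are Wilson 95% intervals. KO-alone H3K27ac exceeds WT-alone H3K27ac on KO-only regions (13.5% and 3.23%), and the order is the opposite on all shared KO peaks (4.43% and 7.46%) and WT-only regions (5.21% and 7.72%). Shared KO peaks weighted to the score and width of the KO-only regions, not drawn here, have 8.15% and 5.64%.

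The KO-only regions with the highest H3K4me3 scores show each kind. At chr19:13317328-13321177 (score 3100), the KO H3K27ac peak was 2885 bp wide and the FLAG peak 6950 bp, and the nearest WT H3K27ac peak was 37.8 kb away. At chr20:62084164-62087238 (score 722), a KO H3K27ac peak of 3246 bp and a FLAG peak with a score of 1384 lay on the region. Both regions had H3K27ac in KO alone. Others of this kind lay on chromosome 2, at 62197698 to 62198963 (score 241), at 105050427 to 105051862 (score 176) and at 196669235 to 196670909 (score 171), and none of these 3 held a FLAG peak. At the last of them a WT H3K27ac peak lay 0.737 kb away.

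Among KO-only regions with H3K27ac in both genotypes, the highest H3K4me3 score was 330 at chr11:7924807-7928802. It was 3996 bp wide, and the KO H3K27ac peak on it was 6121 bp wide with a score of 1043 in its list, against 5575 bp and 56.9 for the WT H3K27ac peak in its own list. These scores come from separate lists and are not on a common scale. The next were at chr21:26744135-26745827 (score 242), chr14:31761621-31763483 (score 220.1), chr4:48382056-48383873 (score 219), and chr1:212278820-212281346 (score 217). None of these 5 held a FLAG peak or H3K27me3. Regions with H3K27ac in WT alone had a median H3K4me3 score of 67.1, against 67.8 for those with H3K27ac in KO alone. Among them, the highest score was 159 at chr3:96986660-96988730, where the nearest KO H3K27ac peak was 120 kb away.

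H3K27me3 was rare on KO-only regions, and its KO and WT counts there were almost equal. A KO H3K27me3 peak overlapped 126 of them (6.36%, 5.37 to 7.53), against 30.7% of all KO H3K4me3 peaks, and a WT H3K27me3 peak overlapped 125 (6.31%, 5.32 to 7.47), against 34.2% of all. The mark was in both genotypes at 104 regions (5.25%, against 29.6% of all KO H3K4me3 peaks), in KO alone at 22 (1.11%, against 1.13% of all) and in WT alone at 21 (1.06%, against 4.61% of all). KO alone exceeded WT alone by 0.0505 points (-0.599 to 0.700), an interval that includes 0. The share in KO alone was near the background, and its difference from shared KO peaks was -0.0223 points (-0.423 to 0.557). Weighting to score and width left KO-only regions below shared KO peaks for KO H3K27me3, at 6.36% and 13.4% (difference -7.002 points, -8.66 to -5.34). Taking the upper 50% of each H3K4me3 list by score as the lists, which leaves 1 of these regions among 144, turned the difference from shared peaks to 17.6 points. There were 6 KO-only regions with H3K27ac and H3K27me3 peaks of any genotype together. Both marks in both genotypes lay on 1 KO-only region (0.0505%) and on 566 shared KO peaks (2.25%), without weighting. Seen from H3K27me3, 136 KO H3K27me3 peaks (1.31% of that list) overlapped a KO-only H3K4me3 region. They were 21 of 1143 KO-only H3K27me3 peaks (1.84%, 1.20 to 2.79), which made up 11% of the KO H3K27me3 list, and 115 of 9232 shared with WT (1.25%, 1.04 to 1.49). The labels list 1 histone input library per genotype, and whether it served all 3 lists of that genotype is not stated, so its part in these counts was not tested.

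The KO-only regions with H3K27me3 in both genotypes met KO H3K27me3 peaks with a median width of 3413 bp, against 3454 bp for that list as a whole. They were a median of 16.2 kb from WT H3K4me3, against 31.3 kb for regions with no H3K27me3. The strongest, at chr12:12866575-12868303, was the region 44 bp from a WT peak named above. That at chr6:43236605-43238242 (score 184) held a FLAG peak. The region at chr22:22495911-22497564 (score 161) carried H3K27ac and H3K27me3 in both genotypes.

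KO-only regions with H3K27me3 in KO alone numbered 22, and 6 of them (27.3%, 13.2 to 48.2) held a FLAG peak, against 63 of 1833 regions with no H3K27me3 (3.44%, 2.70 to 4.37). Regions with H3K27me3 in both genotypes held one in 12 of 104 cases (11.5%, 6.72 to 19.1), and those with it in WT alone in 2 of 21 (9.52%, 2.65 to 28.9). The interval for KO alone overlaps both of these. The 22 regions also had a higher median H3K4me3 score, at 95.7 against 66.8 for regions with no H3K27me3. Of the 22, 7 had a score of 150 or more, a class where 17.6% of all KO-only regions held a FLAG peak. The shares above were not weighted for score. The region at chr18:76149926-76151798 (score 901) was 160 kb from WT H3K4me3 and 114 kb from WT H3K27me3, its KO H3K27me3 peak had a score of 723, and a FLAG peak lay on it. The other regions of this kind with high scores lay nearer to WT marks. At chr1:1097296-1100859 (score 230.1), a WT H3K4me3 peak was 2.91 kb away and the FLAG peak was 10629 bp wide. At chr11:120008077-120009431 (score 228), and at chr7:151590788-151592764 (score 204), FLAG peaks were present, and the WT H3K4me3 peak at the chromosome 7 region lay 0.737 kb away. At chr4:69237815-69239626 (score 175), a WT H3K27me3 peak lay 0.566 kb off and H3K27ac was present in both genotypes.

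FLAG peaks, called on tagged ZNF263 expressed in KO cells, were rare on KO-only regions. They overlapped 83 of the 1980 regions (4.19%, 3.39 to 5.17), against 40.5% of all KO H3K4me3 peaks. Weighting the shared KO peaks to the score and width of the KO-only regions gave 9.14%, and a difference of -4.95 points (-6.32 to -3.59). Among WT-only regions the FLAG share was 10.4% (KO-only minus WT-only -6.22 points, -7.54 to -4.85), a difference not weighted for score or width. Shared WT peaks weighted to the score and width of the WT-only regions had 9.53%. WT-only regions differed from them by 0.882 points (-0.466 to 2.23), an interval that includes 0. A further 23 KO-only regions lay within 1 kb of a FLAG peak without touching it, and the median distance to a FLAG peak was 67.9 kb, against 4.90 kb for shared KO peaks.

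Within the KO-only regions FLAG overlap was highest in the top score class and lowest far from WT H3K4me3. It was 2.82% (1.81 to 4.37) below a score of 60, 3.57% from 60 to 75, 5.64% from 75 to 100, 2.97% from 100 to 150, and 17.6% (10.4 to 28.4) in the 68 regions with a score of 150 or more. In that top class 50.2% of shared KO peaks held a FLAG peak, and in the classes below it 7.93% to 11.6% did. The top class is open upward and does not match the groups in score. A score of 300 was reached by 11 KO-only regions (0.556%) and by 18682 shared KO peaks (74.3%). It was 7.30% from 1 to 5 kb from WT H3K4me3 and 1.10% (0.556 to 2.15) beyond 50 kb. Regions with H3K27ac in KO alone held a FLAG peak in 6 of 267 cases (2.25%, 1.03 to 4.82), those with H3K27ac in both genotypes in 7 of 479 (1.46%, 0.710 to 2.99), and those with H3K27ac in neither in 67 of 1170 (5.73%, 4.53 to 7.21). The FLAG peaks on KO-only regions had a median score of 93.5, against 128 for those on shared KO H3K4me3 peaks and 86.7 for all FLAG peaks, and 8 of the 83 also reached a shared KO H3K4me3 peak.

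FLAG peaks lay on 6 of the 10 KO-only regions with the highest scores, beside the 50.2% of shared KO peaks with a score of 150 or more. Those shared peaks were not matched to these regions in score. Besides the chromosome 19, 20 and 18 regions named above, these were at chr2:238810364-238811717 (score 1027, FLAG score 233), at chr12:108990762-108992566 (score 387, FLAG score 449), and at chr19:50953637-50954861 (score 358, FLAG score 309). The last 3 carried neither H3K27ac nor H3K27me3 in KO or WT. Of the 4 without a FLAG peak, those at chr6:58141076-58143413, at chr10:56558514-56561400, and at chr10:134587190-134588382 also lacked both other marks, and the chromosome 10 region at 56558514 was 799 kb from WT H3K4me3. The remaining one was the chromosome 11 region with H3K27ac in both genotypes.

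The largest single group of KO-only regions had H3K4me3 and no other histone mark. No H3K27ac or H3K27me3 peak of either genotype overlapped 1029 of them (51.97%, 49.8 to 54.2), against 4945 shared KO peaks (19.7%), and 982 (49.6%) also lacked a FLAG peak. The shared peaks here were not weighted to score and width, and their median score was 2462 against 67.2. A weighted share of peaks with no other histone mark was not computed, so the part of score and width in this gap was not tested. Weighting took the shared share with H3K27me3 in both genotypes from 31.5% to 12.3%. For H3K27ac in both genotypes it went from 37.3% to 24.9%. WT-only regions were bare of other histone marks at 54.9%. The 5 widest KO-only regions were of several kinds. The widest, 4171 bp at 65319 to 69489 of the unplaced contig 7_gl000195_random (score 107), had H3K27ac in KO alone with a WT H3K27ac peak 3.52 kb away. The fifth widest, 3446 bp at chr1:206285296-206288741 (score 92.9) carried no other mark.

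KO-only regions were not spread over chromosomes as the KO H3K4me3 list was. They made up 1.92% (1.35 to 2.73) of KO H3K4me3 peaks on chromosome 19, 3.30% (2.13 to 5.10) on chromosome 22 and 4.16% (3.24 to 5.32) on chromosome 17. The highest shares were 11.3% (8.83 to 14.3) on chromosome 18, 11.04% (8.79 to 13.8) on chromosome 13 and 10.96% (9.30 to 12.9) on chromosome 4, and the median over the 22 autosomes was 7.60%. Weak peaks were unevenly spread too, with scores under 100 at 6.40% of KO peaks on chromosome 19 and 22.7% on chromosome 18. Pooled, chromosomes 17, 19 and 22 had 3.04% KO-only peaks and chromosomes 4, 13 and 18 had 11.05% (difference -8.005 points, -9.44 to -6.64). Among peaks with a score under 100 the shares were closer in ratio, at 25.6% (21.3 to 30.4) KO-only on chromosomes 17, 19 and 22 and 41.9% (37.7 to 46.2) on chromosomes 4, 13 and 18 (difference -16.3 points, -22.4 to -9.90). These chromosomes were chosen after their values were seen, so the interval describes them and tests nothing. The 10 Mb window with the most KO-only regions, from 200000001 to 210000000 of chromosome 2, held 16 of them among 104 KO H3K4me3 peaks.

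Chromosome X had the highest ratio of KO-only to WT-only H3K4me3 regions among the autosomes, X and Y. It held 62 KO-only and 57 WT-only regions, a ratio of 1.09, where the autosomes ranged from 0.231 on chromosome 19 to 0.738 on chromosome 18. KO-only regions were 52.1% (43.2 to 60.9) of the exclusive H3K4me3 regions on X and 35.5% (34.3 to 36.8) on autosomes, 16.6 points apart (7.57 to 25.4). With lists of equal length X held 76 KO-only and 39 WT-only regions, a ratio of 1.95, while the autosomes ranged up to 1.38 and 11 of them passed 1. The KO-only share was then 66.1% on X and 49.001% on autosomes (difference 17.1 points, 7.93 to 25.2), a setting added after the data were seen. H3K27ac leaned the same way, with KO-only peaks at 59.9% of the exclusive H3K27ac peaks on X and 50.1% on autosomes (difference 9.80 points, 2.65 to 16.6), and among KO H3K4me3 peaks with a score under 100 the KO-only share was 52.4% on X and 37.8% on autosomes. For H3K27me3 the shares were 35.8% on X and 30.3% on autosomes (difference 5.49 points, -5.04 to 17.5). The contrast of X with autosomes was chosen after the values were seen. As a share of the KO list, KO-only regions on X (7.19%) were close to the 7.3% of all chromosomes, and the ratio of all KO to all WT H3K4me3 peaks was 1.01 on X and 0.944 on autosomes.

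**Figure D5:**
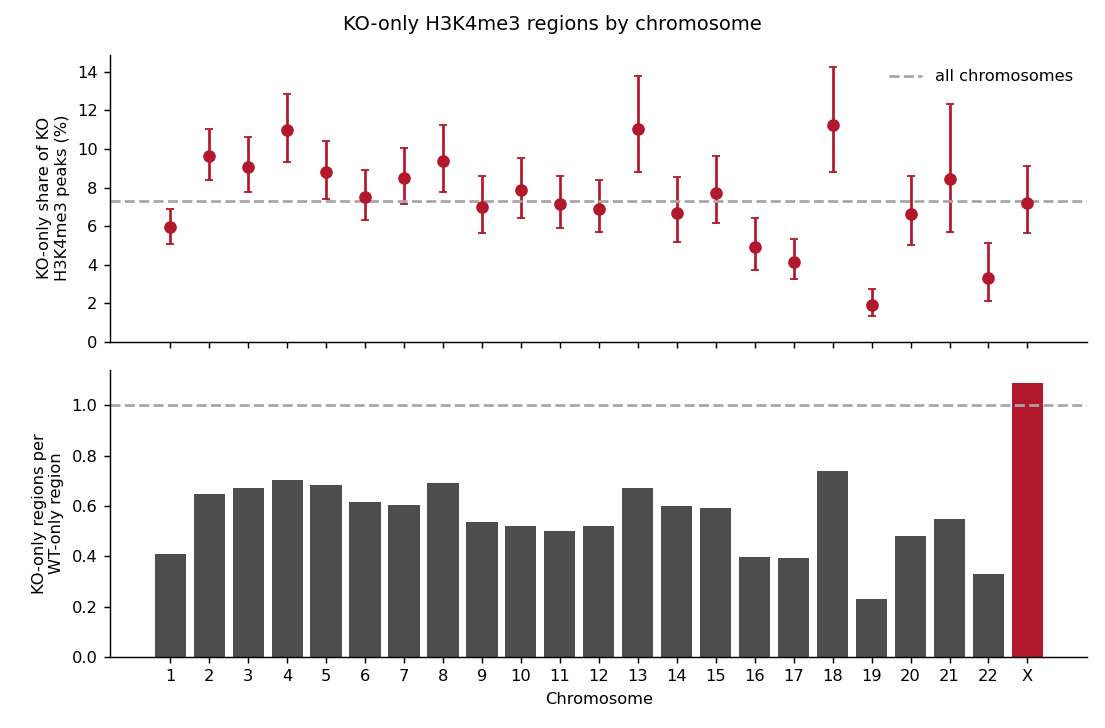
Top, percent of KO H3K4me3 peaks on each chromosome that were KO-only, with Wilson 95% intervals and a dashed line at the 7.3% of all chromosomes. Bottom, number of KO-only regions per WT-only region, with a dashed line at 1. Chromosome 19 is lowest in both panels (1.92% and 0.231), and chromosome X passes 1 (1.09) in these complete lists, where with lists of equal length 11 autosomes pass it too. Chromosome Y is not drawn.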

How the data were processed

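The 13 samples formed 12 groups by their titles, and 7 deposited peak lists were used. The submitters' processing notes name Bowtie2, Picard and hg19. Peak names begin with MACS, and its version, the input used and any pooling remain unstated in the sources used here. The deposited score of each peak is the authors' value, with no stated scale. The lowest score was 40 in each H3K27ac or H3K27me3 list and 50 in the WT H3K4me3 and FLAG lists, and 41.9% of KO H3K4me3 peaks reached a ceiling near 3100. Labels of the endogenous ZNF263 libraries also point to the FLAG list.

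Overlaps of 1 bp or more and edge-to-edge distances were computed in python 3.11.15 with numpy 2.4.6 and pandas 2.3.3, and plots with matplotlib 3.10.9. The steps were checked on simulated data. Shares have Wilson and differences Newcombe 95% intervals. The difference between KO alone and WT alone on the same peaks has instead a normal 95% interval for paired counts. Shared peaks were weighted by classes of score (edges 60, 75, 100 and 150) and width (edges 1000, 1250, 1500 and 2000 bp), with a normal interval. The top classes are open upward, so score and width are not matched within them. Coordinates are hg19, counted from 1. The gene and sequence tables at hand belong to another build, so genes, promoters and sequences were not used here. Regions were named by rule: the 10 highest scores (ties by width), the 5 farthest and 5 widest regions, the 5 highest scores of each mark state and of FLAG, the 3 largest clusters, and those at the edge of the rule. Regions, rule and alternatives were chosen with earlier results of these data known.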

Additional observations from a re-analysis of the deposited data

How the results depend on the processing

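Of 146 alternatives over 20 results, 125 were labelled as like the main value, 17 as moved and 4 as reversed. A like label did not mean an equal size. With lists of equal length, KO-only regions went from 1980 to 2459 and WT-only regions from 3535 to 2519, and both counted as like. The FLAG difference from shared KO peaks counted as like when weighting took it from -39.1 to -4.95 points. Keeping the upper 50% of each H3K4me3 list by score replaced the regions almost wholly, since only 1 of the 144 KO-only regions there lacked a WT peak in the complete lists. It gave 911 WT-only regions and a median distance of 36.1 kb. Of the 144 regions, 30.6% met KO H3K27ac, 18.8% WT H3K27ac, 51.4% KO H3K27me3, 52.1% WT H3K27me3 and 34.7% FLAG, with H3K27ac in WT alone at 1.39%. The H3K27me3 differences from shared KO peaks became 17.6 points in KO and 13.5 points in WT. With a score of 100 or more, the shares were 44.1% for KO H3K27ac, 33.2% for WT H3K27ac, 9.54% for KO H3K27me3, 7.89% for WT H3K27me3 and 6.25% for FLAG. The KO H3K27ac difference from shared peaks turned to 1.67 points there (-3.84 to 7.33) and to 4.66 points after weighting. Counting FLAG within 1 kb gave 5.35%. H3K27ac peaks with a score of 100 or more, chosen after the data were seen, gave 3.38% in KO alone and 0.202% in WT alone. The cause of these moves was not tested, apart from the changed lists themselves. The excess of H3K27ac in KO alone over shared KO peaks stayed above 0 with its interval under each of its alternatives, from 2.64 to 10.4 points. The value for the upper 50% of each list (9.62 points) describes almost wholly other regions. The remaining alternatives reuse regions of the main set, so they are not independent of it. No paired analysis of libraries was possible because each genotype has 1 library per mark. GC content and genes were not analysed, for want of an hg19 genome. The lists carry no depth, so peak strength and library depth cannot be told apart.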
